A study of Homo sapiens with 39 samples.

Results

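The cytosolic ribosomal protein genes were followed through RNA sequencing of 4 human B-cell lymphoma lines treated for 6 h. The family was taken by name. Every row of the count table whose symbol was RPL or RPS followed by digits and at most one of the letters A, X or L was a member, together with RPLP0, RPLP1, RPLP2 and RPSA, while RPS6K kinases, pseudogenes and copies on the Y chromosome were left out. This gave 80 members of 15808 genes in the table, 48 of them of the large subunit and 32 of the small subunit. All but RPL3L, which had too few counts, passed the filter on low counts, so 79 members of 12814 genes were tested.

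The lines were DOHH2, OCILy10, TMD8 and Toledo, all established lines. Each was treated with the vehicle DMSO, with NEO2734 or with OTX015, and OCILy10 also with CB103, which makes 13 groups of 3 replicate libraries and 39 libraries in all. OTX015 blocks the acetyl-lysine pockets of the BET proteins, NEO2734 those of the BET proteins and of the acetyltransferases CBP and p300, and CB103 interferes with the NOTCH transcription complex. Doses are not in the labels, and nothing in them says whether replicates came from separate cultures, so the p-values measure the spread between these libraries, which may be technical. The treatment text attached to the samples names other compounds and a longer exposure, and each library's own label was used here.

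Ribosomal proteins are the protein part of the cytosolic ribosome, which joins about equal numbers of each of them to the ribosomal RNAs. Their mRNAs are among the most abundant of a growing cell, and most begin with a C followed by a run of pyrimidines, the 5′ terminal oligopyrimidine tract through which mTOR and LARP1 set their translation. MYC, whose transcription depends strongly on BET proteins in lymphoma, is known to drive genes for ribosome assembly as well as ribosomal protein genes, which is why the family is of interest under BET inhibition.

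The start sites of the members that carry the results below are shown first, because the tract is the sequence the family is known for. Each line gives 15 bases before and 15 bases from the transcript start listed by RefSeq (GRCh38.p14), 5′ to 3′, with the unbroken run of pyrimidines from the start in capitals.
RPS14: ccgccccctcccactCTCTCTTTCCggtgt
RPL36A: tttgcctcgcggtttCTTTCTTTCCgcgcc
RPL13A: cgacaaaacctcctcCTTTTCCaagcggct
RPS27: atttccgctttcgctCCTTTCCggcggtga
RPS7: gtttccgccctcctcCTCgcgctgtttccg
RPS29: ccccgagcgcgcagcTggcagcggtggttg
RPS26: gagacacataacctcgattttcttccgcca
RPS4X: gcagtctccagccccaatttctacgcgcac
RPS27L: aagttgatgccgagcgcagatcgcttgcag
These windows lie at chr5:150449725-150449754 (minus strand) for RPS14, chrX:101390996-101391025 (plus) for RPL36A, chr19:49487593-49487622 (plus) for RPL13A, chr1:153990747-153990776 (plus) for RPS27, chr2:3575245-3575274 (plus) for RPS7, chr14:49598696-49598725 (minus) for RPS29, chr12:56041903-56041932 (plus) for RPS26, chrX:72277234-72277263 (minus) for RPS4X and chr15:63157463-63157492 (minus) for RPS27L. The last 15 bases of each window are the first of the transcript. Of the 63 members with a listed start, 46 (73.0%) had a C followed by at least 4 more pyrimidines at one of their starts, against 5.14% of the 27305 genes in the same list. RPS14, RPL36A, RPL13A and RPS27 were among the 46, whereas the listed starts of RPS7, RPS29, RPS26, RPS4X and RPS27L do not hold it. Whether these lines used the listed starts was not measured, so members outside the 46 are not shown to lack the tract.

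Libraries differed in ways that bear on every value below. Totals ran from 1000281 to 11668542 counts and fell into 15 deep libraries of 6670250 or more and 24 shallow ones of 3420458 or fewer. Replicate 1 was the deep library in 12 of the 13 groups, replicate 3 in the Toledo NEO2734 group, and replicate 2 was deep as well in OCILy10 DMSO and OCILy10 NEO2734, so depth cannot be told apart from anything else in which these libraries differed. In 3 libraries, genes otherwise private to another line were read at up to 70.4% of their level in that line, against at most 2.3% in the other 36. These genes, 8 to 18 per line, were chosen as private within the 36, with the 3 libraries set aside. The low values in the 36 were thus largely set by that choice. Of the 3 libraries with foreign-line genes, Toledo DMSO replicate 2 and DOHH2 NEO2734 replicate 3 held OCILy10 genes, and OCILy10 CB103 replicate 2 held Toledo genes. All 8 B-cell markers were read in every line, at a summed 815 to 4188 CPM (counts scaled to a common library size with TMM factors) per library, and 6 of the 8 fell with NEO2734. Of 7 T-cell, 7 monocyte and 4 erythroid markers, 3, 2 and 0 were rows of the table, with none of CD3D, CD3E, CD3G, CD14 or HBB among them, and the T-cell and monocyte rows summed to at most 120.0 and 4.79 CPM. The part of these differences in the results was not tested. In such bulk samples, fewer cells of a kind and less RNA per cell cannot be told apart.

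After 6 h of NEO2734 the ribosomal protein mRNAs stayed close to their DMSO levels relative to the other genes, and 41 of 57 ribosome biogenesis genes fell. Levels are scaled within each library, so a change in total mRNA per cell would not show. Over the mean of the 4 lines, 1 of 79 members passed the test (edgeR quasi-likelihood, Benjamini-Hochberg adjusted p under 0.05, depth in the model), where 30.6% of all genes tested did (14.0% higher and 16.6% lower). The median log2 change of the members was 0.02, with a range from -0.36 (RPS7) to 0.32, beside a median of -0.02 over all genes. The 95% interval of the change lay inside a 1.5-fold change either way for 63 of the 79 members (79.7%), against 37.1% of all genes tested, and inside a 2-fold change for 78. Interval width depends on the number of counts, and such shares, here and below, were not matched for level.

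The single call was RPL36A, a large subunit protein encoded on the X chromosome. RPL36A overlaps a read-through gene, RPL36A-HNRNPH2, with which its counts can be shared. Its level in DOHH2 was 35.9, 62.5 and 87.3 CPM in the DMSO replicates 1 to 3 and 31.5, 61.0 and 42.4 with NEO2734. In OCILy10 the DMSO libraries read 27.2, 23.5 and 61.7 CPM, and the NEO2734 libraries 22.9, 25.1 and 39.1. TMD8 gave 23.4, 46.5 and 50.0 CPM with DMSO and 22.0, 34.5 and 37.5 with NEO2734. The groups overlapped in each of these lines, and among the DMSO and NEO2734 libraries the highest of each line was a DMSO library. In Toledo the 3 DMSO libraries held 52.2, 49.7 and 118 CPM of RPL36A and the NEO2734 libraries 72.5, 57.4 and 48.6, again overlapping. RPL36A fell by 0.27 ± 0.10 (SE) on the log2 scale, with an edgeR adjusted p of 0.0364. The call was lost without the 3 libraries with foreign-line genes (log2 change -0.27, adjusted p 0.0554), and without the depth term (-0.36, adjusted p 0.303). With the replicate number within each line as a block, 2 members were called, 1 lower and 1 higher. The RPL36A call was also lost in 13 of the 39 fits that left out 1 library, namely DOHH2 DMSO replicate 3, DOHH2 NEO2734 replicate 3, OCILy10 DMSO replicates 1 and 3, OCILy10 NEO2734 replicates 2 and 3, TMD8 DMSO replicate 3, TMD8 NEO2734 replicates 2 and 3, Toledo DMSO replicates 1 and 3, and Toledo NEO2734 replicates 1 and 2, with adjusted p from 0.0511 to 0.101.

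None of 16 members read whatever their change passed the test with NEO2734. Among them, RPL5 and RPL11, which with 5S ribosomal RNA bind MDM2 when assembly is disturbed, had log2 changes of 0.02 ± 0.12 and 0.10 ± 0.11. RPLP0, RPLP1 and RPLP2, which form the stalk that recruits elongation factors, had 0.21 ± 0.12, 0.30 ± 0.31 and 0.12 ± 0.22. RPS6, the substrate of the S6 kinases, had 0.10 ± 0.12, and RPSA, at the mRNA exit side of the small subunit, 0.04 ± 0.09. RPS27A, made as a fusion with ubiquitin, had -0.09 ± 0.10. RPS27L, the p53-responsive paralog of RPS27, had -0.16 ± 0.11 beside 0.02 ± 0.21 for RPS27, and RPL39L, the paralog of RPL39 known from testis and tumours, -0.31 ± 0.28 beside -0.03 ± 0.20 for RPL39. RPL22, RPL41, RPS4X and RPL13A had changes between -0.09 and 0.15. Of abundant genes of the same growth programme outside the family, the nucleolar chaperone NPM1 had -0.17 ± 0.10 and the elongation factors EEF1A1 and EEF2 had 0.22 ± 0.14 and 0.54 ± 0.27, none of which passed.

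**Figure D1:**
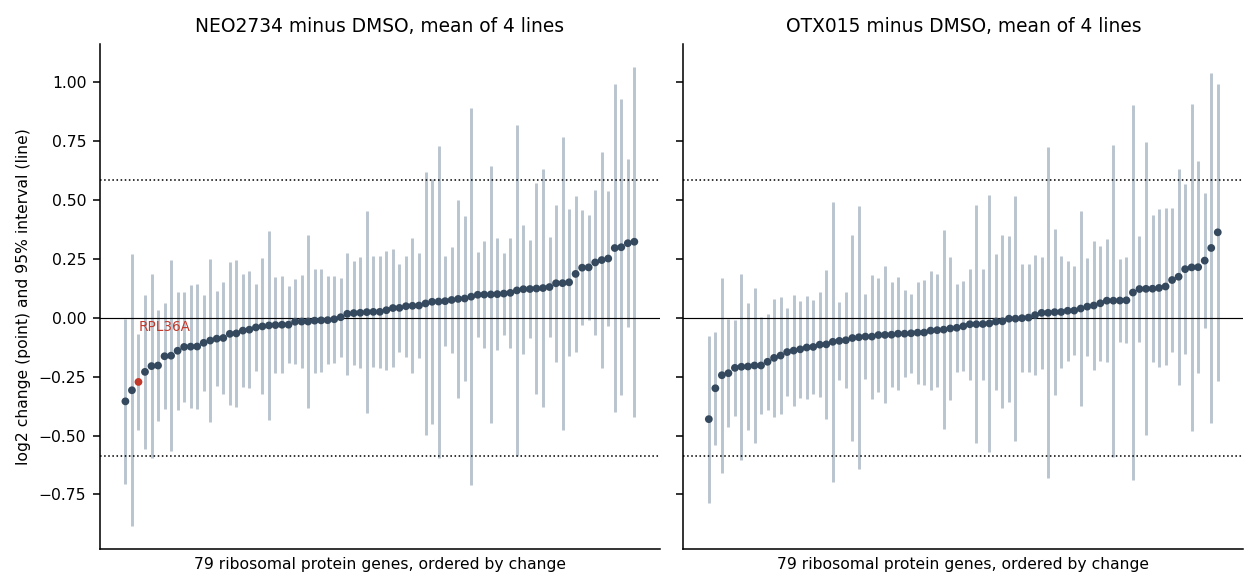
Log2 change of each of the 79 tested ribosomal protein genes (point) with its 95% interval (vertical line), NEO2734 on the left and OTX015 on the right, each against DMSO as the mean of 4 lines. Dotted lines mark a 1.5-fold change, the gene in red is RPL36A, which alone passed the test, and most intervals lie inside the dotted lines (63 of 79 with NEO2734, 65 of 79 with OTX015).

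With OTX015, 0 of 79 members passed the test, where 19.5% of all genes did (8.83% higher and 10.7% lower). Unadjusted p was under 0.05 for 4 members, which were RPL21, RPL36A, RPS27L and RPS7, all with lower levels. The share of all genes at that unadjusted threshold was not counted, so these 4 members are given as a description only. Their log2 changes were -0.30 ± 0.12, -0.21 ± 0.10, -0.24 ± 0.11 and -0.43 ± 0.17, with edgeR adjusted p from 0.0716 to 0.147. The median change was -0.04, the same as over all genes, and the interval lay inside a 1.5-fold change for 65 members, against 42.6% of all genes tested. DESeq2 called 2 members and limma-voom 1. NEO2734 compared directly with OTX015 gave 0 called members, 0 at an unadjusted p under 0.05, and 0 by DESeq2 or limma-voom, beside 0.0546% of all genes. The median difference between the compounds was 0.07 on the log2 scale and ran from 0.01 to 0.10 when 1 library was left out. The estimate was above 0 for 65 members, which share their libraries and are not independent. Inside a 1.5-fold difference lay 67 of the 79 intervals, against 56.2% of all genes tested. Both compounds were compared with the same DMSO libraries, and their doses are not known to match.

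Genes that assemble ribosomes behaved otherwise in the same libraries. Of 57 ribosome biogenesis genes, 41 fell with NEO2734 and 26 with OTX015, none rose, and the list's median log2 changes were -0.49 and -0.32. The largest falls with NEO2734 were those of RRS1 (-0.93 ± 0.13), a factor of 5S particle assembly, GAR1 (-0.92 ± 0.09), of the box H/ACA particles that pseudouridylate ribosomal RNA, MRTO4 (-0.91 ± 0.09), a placeholder for RPLP0 in the nucleolar particle, and RRP9 (-0.89 ± 0.21), a U3 particle protein. Of 75 mitochondrial ribosomal protein genes tested, 30 fell with NEO2734 and 26 with OTX015, and none rose, with MRPL34 and MRPL3 at -0.81 ± 0.17 and -0.80 ± 0.11 with NEO2734. Among 45 translation factors, 11 fell and 2 rose with NEO2734, and 5 fell and 1 rose with OTX015. These were no larger a share than over all genes tested, where 30.6% were called with NEO2734 and 19.5% with OTX015. EIF5A, the hypusine-carrying elongation factor, fell by 0.77 ± 0.11 with NEO2734 and by 0.51 ± 0.11 with OTX015. Other lists with few calls were the mitochondrially encoded genes, with 0 of 26 called by edgeR with either compound, and the ribosomal protein pseudogenes, with 0 of 40 called with NEO2734 and 1 with OTX015. The lists were drawn up with earlier results of these data known and were not tested against each other.

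MYC fell by 1.44 ± 0.17 with NEO2734 and by 0.77 ± 0.17 with OTX015, and HEXIM1, whose rise is a common readout of BET inhibition, gained 2.07 ± 0.12 and 1.74 ± 0.12 (edgeR adjusted p 0.00141 or lower for all 4). Of 15 regulators of the pyrimidine-tract mRNAs, 3 fell and 2 rose with NEO2734, and 2 fell and 2 rose with OTX015, with list medians of 0.09 for both. Over all genes tested, 16.6% fell and 14.0% rose with NEO2734, and 10.7% fell and 8.83% rose with OTX015. LARP1, which binds the pyrimidine tract of ribosomal protein mRNAs, fell by 0.63 ± 0.07 with NEO2734 and by 0.25 ± 0.07 with OTX015, and EIF4EBP2, a translation repressor under mTOR, gained 0.78 ± 0.09 and 0.63 ± 0.09. Of the dedicated carriers and chaperones of ribosomal proteins, 5 of 13 fell with NEO2734 and 4 with OTX015, among them with NEO2734 HEATR3, which imports RPL5 (-0.65 ± 0.13, picked for its size). Members with the pyrimidine start had median changes of 0.03 with NEO2734 and -0.02 with OTX015 (46 genes), and those whose listed starts lack it -0.01 and -0.05 (17 genes). Paralogs that the naming rule leaves out included RPL7L1, a biogenesis factor, which fell by 0.55 ± 0.09 and 0.44 ± 0.09, while RPL22L1 and RPL36AL had changes from -0.27 to -0.04 that did not pass. Without the 3 libraries with foreign-line genes, 38 of 57 biogenesis genes and 26 of 76 mitochondrial ribosomal protein genes fell with NEO2734. Without the depth term 34 biogenesis and 17 mitochondrial ribosomal protein genes fell with NEO2734 and 12 and 8 with OTX015, in the shallow libraries alone 30 and 13 with NEO2734 and 17 and 6 with OTX015, and in the deep libraries alone, with 2 residual degrees of freedom, 8 and 0 with NEO2734 and 0 and 0 with OTX015. With the replicate block 1 mitochondrial ribosomal protein gene rose with either compound, and without the low-count filter 1 rose with NEO2734.

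**Figure D2:**
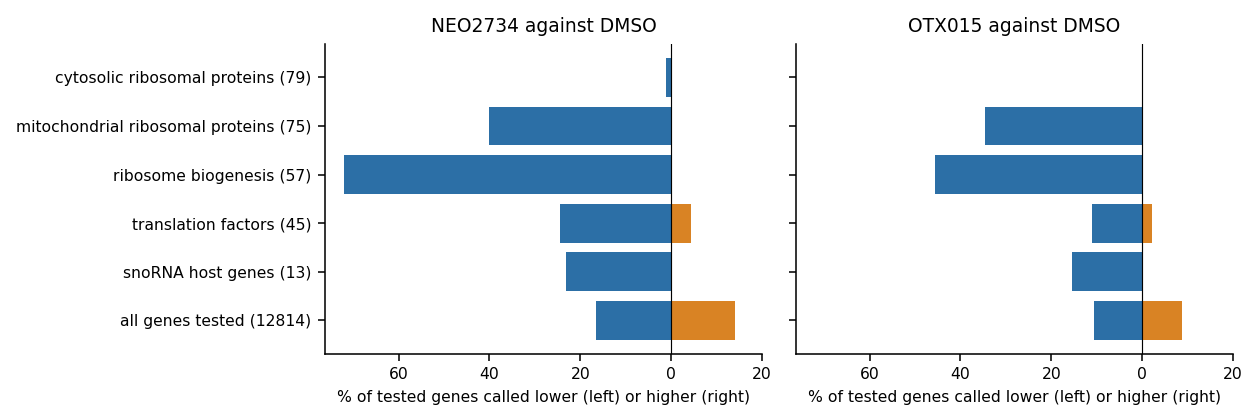
Percent of tested genes called lower (blue, to the left) or higher (orange, to the right) in each gene list, with the number tested in brackets, for NEO2734 and OTX015 as the mean of 4 lines. The bar of the cytosolic ribosomal proteins (1 of 79 and 0 of 79) is the shortest of those drawn, and those of ribosome biogenesis (41 and 26 of 57) and of the mitochondrial ribosome (30 and 26 of 75) point to lower levels.

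Within single lines, 0 members passed the test with either compound in DOHH2, OCILy10 and TMD8, with at most 1 at an unadjusted p under 0.05 in each. The share of all genes called there was 8.85%, 4.93% and 5.79% with NEO2734 and 1.31%, 0.858% and 1.72% with OTX015. DESeq2 and limma-voom called none in these 6 contrasts either. RPL3L, left out by the low-count filter, had 11, 4 and 10 counts in the DOHH2 NEO2734 libraries. In DOHH2 it had 2, 0 and 0 counts with DMSO and 0, 0 and 0 with OTX015. Intervals within one line were wider, with a median SE of 0.24 to 0.25, and between 14 and 35 of the 79 lay inside a 1.5-fold change. Over all genes tested this share was 10.4% to 15.2%.

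In Toledo, 2 members fell with NEO2734 (13.4% of all genes called) and 3 with OTX015 (8.4%). RPS7, a small subunit protein, read 647, 606 and 60.4 CPM in the DMSO libraries, 87.0, 56.8 and 678 with NEO2734 and 590, 69.2 and 65.2 with OTX015. RPS29, a small zinc-binding protein of the small subunit, read 264, 238 and 14.3 CPM with DMSO, 21.1, 22.5 and 294 with NEO2734 and 260, 24.2 and 23.4 with OTX015. The high values are those of the deep library of each group and of DMSO replicate 2, a shallow library of 3420458 counts and one of the 3 with foreign-line genes. The fitted log2 changes with NEO2734 were -1.43 ± 0.35 for RPS7 and -1.58 ± 0.41 for RPS29 (edgeR adjusted p 0.00724 and 0.0106). With OTX015 they were -1.35 ± 0.35 and -1.34 ± 0.41, and RPL21, which had 534, 415 and 158 CPM with DMSO and 389, 140 and 129 with OTX015, had -0.87 ± 0.24 (edgeR adjusted p 0.0164, 0.0371 and 0.0201). Without the 3 libraries none of the 5 calls held (adjusted p from 0.0906 to 0.303), and neither did any without Toledo DMSO replicate 2 alone. Leaving out Toledo DMSO replicate 1 gave 5 called members with NEO2734 and leaving out Toledo NEO2734 replicate 1 gave 1, while without Toledo OTX015 replicate 2 or 3 the OTX015 count was 1 and 0. In the deep libraries alone, with 1 library in each Toledo group, RPS7 and RPS29 had changes of 0.042 and 0.13 with NEO2734.

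The difference of the response between the 4 lines was called for 0 of 79 members with NEO2734 and 0 with OTX015 (F-tests in edgeR), where 0.0702% and 0.0156% of all genes were called. Unadjusted p was under 0.05 for 2 and 3 members. DESeq2 called 1 with NEO2734 and 0 with OTX015, limma-voom 0 with either, and without Toledo DMSO replicate 1 edgeR called 1 with NEO2734. CB103 in OCILy10 changed 0 members by edgeR, with 0 at an unadjusted p under 0.05 and 0 by DESeq2 or limma-voom, and 0.0% of all genes were called. The median change was -0.01, but it was -0.27 without the depth term and 0.92 with the second deposited table, where 1 member was called. With the first table and the depth term, 32 of 79 intervals lay inside a 1.5-fold change, against 24.2% of all genes tested, and 61 inside a 2-fold change.

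What moved the ribosomal protein genes most was the library. Per doubling of the library total, within groups, 59 members rose and 11 fell, 70 of 79 in all, where 59.5% of all genes were called (31.5% higher and 28.1% lower). The median change per doubling was 0.46 on the log2 scale for the members and 0.02 for all genes. The family's share of all counts was 7.42% to 10.5% in the deep libraries and 5.46% to 9.3% in the shallow ones (means 8.78% ± 0.857 and 7.07% ± 0.965, SD, n = 15 and 24), which overlap.

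RPS29 and RPS14, a small subunit protein known from the 5q- syndrome, marked the ends. RPS29 read 260 to 606 CPM in the 15 deep libraries, with a median of 385. In the 21 shallow libraries without another line's genes it read 14.3 to 42.4, with a median of 25.5, which is 15.1-fold lower. RPS14 went the other way, with 1094 to 1727 CPM in the deep libraries and 6035 to 10557 in those shallow ones, a median 5.52-fold higher. The ranges do not meet for either gene. The ratio of RPS29 to RPS14 was 0.218 to 0.454 in the deep libraries and 0.00205 to 0.00526 in the 21 shallow ones, whatever the line or compound, and the 3 libraries with foreign-line genes lay between, at 0.087, 0.0142 and 0.0139. Toledo NEO2734 replicate 3, the one deep library that is neither replicate 1 nor 2, read 294 CPM of RPS29 and 1094 of RPS14, as the other deep libraries did.

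The fitted changes per doubling were 1.58 ± 0.07 for RPS29, 1.35 ± 0.07 for RPS27, 1.30 ± 0.06 for RPS7, 1.16 ± 0.06 for RPS26 and 1.11 ± 0.15 for RPS28, and between 0.87 and 1.08 for RPL28, RPL10, RPS12 and RPL10A. They were -1.02 ± 0.06 for RPS14, -0.56 ± 0.05 for RPL7 (picked for its value), -0.50 ± 0.04 for RPL11, -0.39 ± 0.04 for RPL36A and -0.31 ± 0.06 for RPL13A. RPL5 stayed level, at 1768 to 2686 CPM in the deep and 1332 to 3384 in the 21 shallow libraries, and was not called. The 15 deep and those 21 shallow libraries did not overlap for 29 of 79 members (36.7%), 28 of them higher in the deep libraries, against 5.81% of all genes tested. With the 3 libraries with foreign-line genes included, 20 members did not overlap, 19 of them higher in the deep libraries, against 4.42% of all genes. Over the 21 shallow libraries, the median was at least 2-fold higher in the deep libraries for 44 members and at least 2-fold lower for 4. The share of all genes with a 2-fold difference of the medians was not counted. Across the 79 members the depth term was nearly unrelated to the GC content of the annotated mRNA (Pearson's r 0.02) and to the number of named pseudogenes (Spearman's rho 0.05). These are descriptions over genes that share their libraries. Rows for ribosomal protein pseudogenes took 0.0312% to 0.0567% of the counts in the deep libraries and 0.0281% to 0.0426% in the shallow ones.

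**Figure D3:**
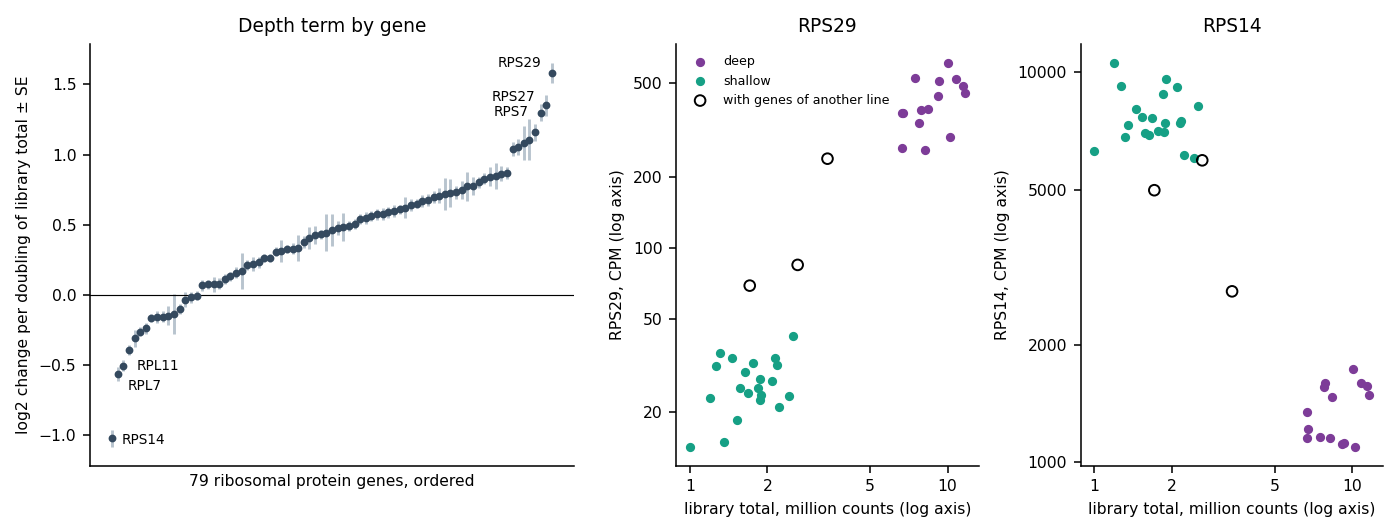
Left, log2 change per doubling of the library total with its SE for each of the 79 members, in order. Middle and right, CPM of RPS29 and RPS14 against the library total in the 39 libraries (both axes log), where deep (purple) and shallow (green) libraries do not overlap and the 3 libraries with genes of another line (open circles) lie between or at the edge.

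With depth in the model, 37 of 79 members (the 4 DMSO-treated lines, F-test in edgeR) differed between lines, below the 66.3% of all genes called. The ratio of the highest to the lowest line had a median of 1.97 over the 37 and reached 5.93. TMD8 was the lowest line for 24 of the 37, and Toledo was the highest for 21 and OCILy10 for 11. The order of the lines over all genes called was not counted, so these counts cannot be called particular to the family. These counts depend on the libraries: 12 members were called in the shallow libraries alone, 17 in the deep libraries alone and 4 without the depth term, and TMD8 was the lowest for 10 of the 37 in the shallow libraries alone. Without the 3 libraries with foreign-line genes, the libraries of 1 line, treated ones included, lay above or below those of the other 3 lines within each depth set for 11 members, against 23.8% of all genes tested. Over all 39 libraries this held for 4 members, RPS13, RPS25, RPS26 and RPS27L, against 13.2% of all genes. These 11 were chosen after their values were seen.

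RPS26, a small subunit protein at the mRNA exit channel, was low in TMD8. Its DMSO libraries read 117, 17.2 and 17.8 CPM in TMD8, 313, 32.8 and 53.0 in DOHH2, 531, 427 and 50.2 in OCILy10 and 278, 293 and 45.0 in Toledo. Over all compounds, and without the 3 libraries with foreign-line genes, the 3 deep TMD8 libraries lay at 97.2 to 129 CPM, below 278 to 547 in the deep libraries of the other lines, and the 6 shallow ones at 12.2 to 24.4, below 32.8 to 86.9. The fitted difference of TMD8 from the mean of the other 3 lines was -2.10 ± 0.31 on the log2 scale (edgeR adjusted p for the 4 lines 4.63e-06). RPS25, a small subunit protein needed by several viral internal ribosome entry sites, was also lowest in TMD8 (-1.34 ± 0.22), with 350, 106 and 138 CPM in its DMSO libraries beside 890, 210 and 235 in DOHH2. RPL11 and RPL37A lay lowest in TMD8 in both depth sets too, without the 3 libraries with foreign-line genes, at -0.85 ± 0.19 and -0.70 ± 0.14. RPS12, RPL34 and RPL27, also among the 10 members with the smallest p between lines, were lowest in TMD8 and highest in Toledo by the fitted difference. Toledo differed from the other lines by 0.89 ± 0.22, 0.94 ± 0.20 and 0.79 ± 0.17. For none of these members did TMD8 lie apart from the other lines in both depth sets. In the shallow libraries without foreign-line genes, RPL27 had a median of 229 CPM in TMD8 and 212 in DOHH2.

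RPL13A, a large subunit protein known for its part in silencing inflammatory mRNAs (chr19:49487554-49492308, GENCODE 29 on GRCh38), was highest in TMD8. It read 4518, 9039 and 12179 CPM in the TMD8 DMSO libraries and 3756, 3320 and 7019 in OCILy10, which overlap. It read 2924, 3493 and 3080 CPM in DOHH2 and 1237, 3335 and 2882 in Toledo, both below TMD8 throughout. TMD8 differed from the other 3 lines by 1.30 ± 0.25 on the log2 scale, and Toledo by -1.13 ± 0.29 (edgeR adjusted p for the 4 lines 7.45e-05). RPL13A, RPS27A and RPS27L were among the 4 members still called without the depth term.

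RPS4X, the X-encoded form of a small subunit protein that also has a Y-encoded form, was high in Toledo. Its DMSO libraries read 4220, 1297 and 917 CPM in Toledo, 1798, 485 and 546 in DOHH2, 2352, 1489 and 613 in OCILy10 and 1294, 522 and 528 in TMD8. Over all compounds, again without those 3 libraries, Toledo lay at 3387 to 4439 CPM (deep) and 917 to 1398 (shallow), above every deep library of the other lines (at most 2352) and every shallow one (at most 715). Toledo differed from the mean of the other lines by 1.22 ± 0.19 on the log2 scale (edgeR adjusted p for the 4 lines 2.24e-05). The family has 4 members on the X chromosome, and the other 3 were also called with Toledo highest. They were RPL10 at 1.02 ± 0.26, RPL36A at 0.54 ± 0.16 and RPL39 at 1.16 ± 0.30. Toledo was, however, the highest line for 21 of the 37 called members. Without the 3 libraries with foreign-line genes, RPS4X alone of the 4 lay apart from the other lines in both depth sets. Whether genes of the X chromosome as a group differ in Toledo was not tested.

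RPS27L was highest in OCILy10 and lowest in Toledo, and RPL39L was highest in Toledo. RPS27L read 128, 106 and 154 CPM in the OCILy10 DMSO libraries, 67.6, 94.1 and 88.0 in DOHH2, 56.6, 65.4 and 64.9 in TMD8 and 39.6, 84.1 and 46.0 in Toledo. Toledo DMSO replicate 2, at 84.1, is the library in which OCILy10 genes were found, and the other 8 Toledo libraries lay at 34.4 to 46.1 CPM. OCILy10 was higher than the other lines by 1.07 ± 0.17 on the log2 scale, and Toledo differed from them by -0.65 ± 0.19 (edgeR adjusted p for the 4 lines 2.35e-05). RPL39L was highest in Toledo (1.66 ± 0.43), with 26.4, 7.1 and 8.19 CPM in its DMSO libraries beside 9.86, 4.33 and 1.94 in DOHH2. Per kilobase of annotated mRNA, RPL39 exceeded RPL39L 7.04-fold in Toledo and 8.07-fold to 9.97-fold in the other lines, over all libraries of each line. RPS21, RPS24 and RPS18 lay lowest in OCILy10 in both depth sets, again without those 3 libraries. RPS21 and RPS24 differed from the other lines by -0.73 ± 0.22 and -1.18 ± 0.25, while RPS18 did not pass the test between lines (-0.48 ± 0.18, edgeR adjusted p for the 4 lines 0.0802).

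**Figure D4:**
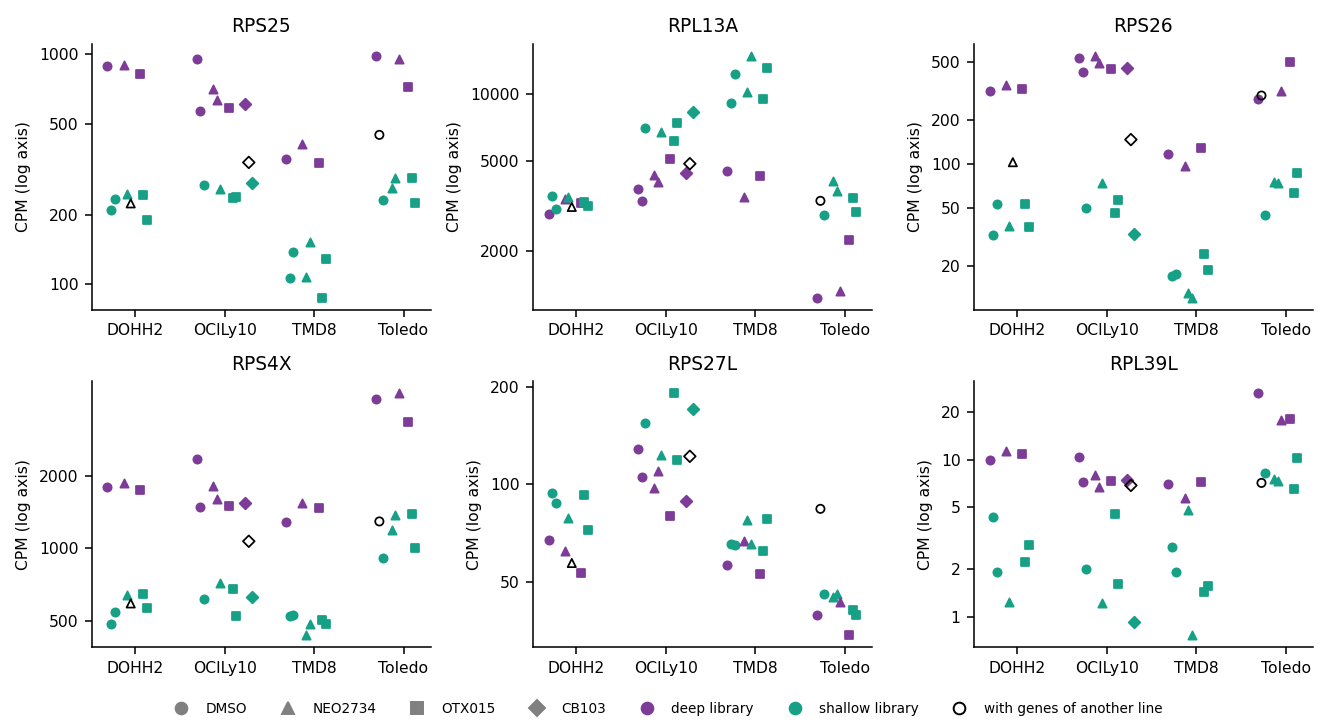
CPM (log axis) of 6 members in the 39 libraries by line, with the compound as the marker shape, deep libraries in purple, shallow in green and the 3 libraries with genes of another line as open markers. RPS25 and RPS26 are lowest in TMD8, RPS4X and RPL39L are highest in Toledo and RPS27L is highest in OCILy10 and lowest in Toledo within each depth set when the open markers are left out.

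Beyond group and depth, members differed in how far they spread between libraries. The SD of the log2 level left after both (pseudocount 0.5) was 0.31 in the median over the 79 members and 0.39 over 11094 genes tested with a coding transcript. It was 1.06 for RPS28, 0.97 for RPL35 and 0.95 for RPS9. The 20 members of highest GC content (54.1% to 62.8% in their annotated mRNAs) had a median SD of 0.60, and the 20 of lowest GC (42.3% to 46.7%) 0.28. Over the 79 members Pearson's r between GC content and this SD was 0.60 and Spearman's rho 0.44, again across genes of the same libraries. The summed level of the high-GC set was 0.506 to 1.67 times that of the low-GC set in the deep libraries (median 1.25) and 0.571 to 1.64 times in the shallow ones (median 0.986), so the depth sets overlapped. The relation with GC content was looked for after the values were seen, along with the relations to the depth term given above.

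**Figure D5:**
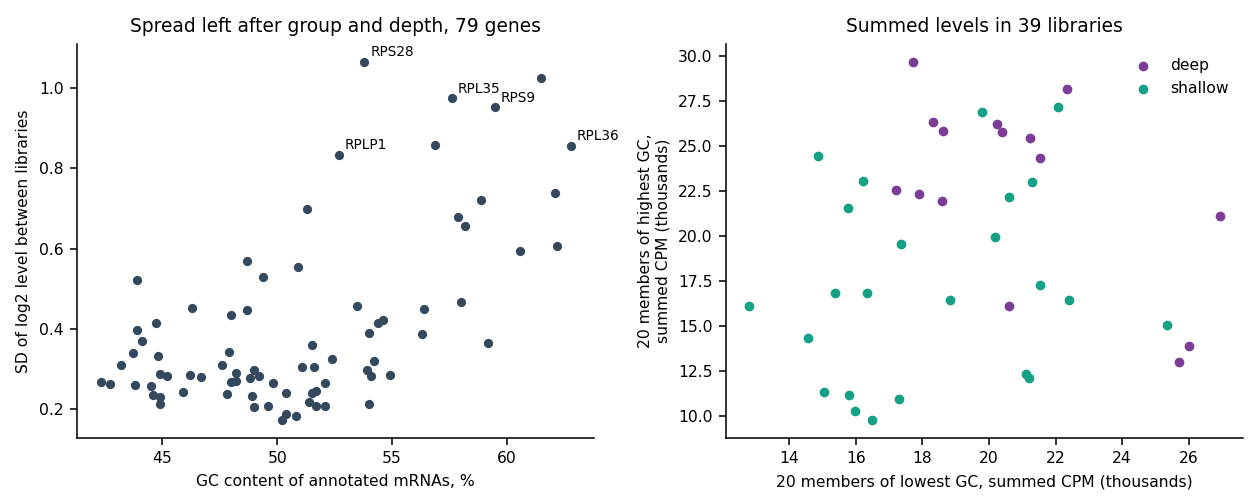
Left, SD of the log2 level left after group and depth against the GC content of the annotated mRNAs for the 79 members, where the largest values belong to members above 50% GC. Right, summed CPM of the 20 members of highest GC against that of the 20 of lowest GC in each of the 39 libraries, deep in purple and shallow in green, which overlap.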

How the data were processed

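RNA of 39 libraries (13 groups of 3) was made into TruSeq libraries, per the labels' protocols. The authors deposited gene counts, and STAR, edgeR and hg38 are named per the submitters' processing notes, whereas strand use in counting is not given in the sources used here. A second deposited table of counts equals the first in 38 of 39 columns and served only as an alternative. From the deposited counts, edgeR 4.0.16 in R 4.3.3 (TMM scaling, filterByExpr, quasi-likelihood test) was fitted to 12814 genes with 13 group coefficients and the centred log2 library total. Calls are Benjamini-Hochberg adjusted p under 0.05 over all genes. The fit was also run on counts simulated from the same model, which cannot show whether that model suits these libraries. Alternatives used DESeq2 1.42.0, limma 3.58.1, other scaling, depth handling and left-out libraries. Of the 80 members, 76 have named pseudogenes and 28 hold small nucleolar RNA genes inside them, so their counts can be shared. The same holds for the 3 members that overlap a read-through gene (RPL17, RPL36A and RPS10). Named members are those called, a list of family members and, between lines, those with the smallest adjusted p. The members, lists and tests were chosen with earlier results of these data known. Results for some members are not reported here.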

Additional observations from a re-analysis of the deposited data

Results flagged for a closer look

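One value lies in data that the comparisons did not use. In the second deposited table of counts, the column of OCILy10 CB103 replicate 1 holds 5474462 counts where the first table has 11430777, and the ribosomal protein genes take 16.2% of them where they take 8.77% in the first. The OCILy10 DMSO libraries lie at 7.57% to 9.59% in either table. The other 38 columns are equal in both.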

How the results depend on the processing

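Of 5100 alternative values for 100 pairs of a named gene and a comparison, 4985 kept their side of the threshold (116 of them changed sign without being called in either), 107 lost the call, 6 gained one and 2 reversed. The 2 are RPS7 and RPS29 with NEO2734 in Toledo, at 0.042 and 0.13 in the deep libraries alone, where 1 library is compared with 1. The number of members called with NEO2734 (1) was 0 in the deep libraries alone, in the shallow ones alone, with limma-voom, without the depth term, without the low-count filter, with the second table and without the 3 libraries with foreign-line genes, and 2 with a replicate block. With OTX015 (0) it was 2 with DESeq2, 2 with deep or shallow as a factor and 1 with limma-voom. With CB103 (0) it was 1 with the second table, and with NEO2734 in DOHH2 (0) it was 1 without the low-count filter. In Toledo the NEO2734 count (2) was 0 in the deep libraries alone, without the depth term and without the 3 libraries, 1 with the second table or the shallow libraries alone, and 4 with the replicate block. The OTX015 count in Toledo (3) was 0 in the deep or shallow libraries alone, without the depth term and without the 3 libraries, and 1 with the second table. All contrasts within lines together (5) gave 0 in the deep libraries alone, without the depth term and without the 3 libraries, 2 with the second table and 1 in the shallow libraries alone. The difference of the NEO2734 response between lines (0) was 1 with DESeq2. Members differing between lines (37) were 17 in the deep libraries alone, 12 in the shallow ones alone, 4 without the depth term and 21 with the second table. Members with 1 line apart from the others in both depth sets (11) were 4 over all 39 libraries, an alternative chosen after seeing the data. The median change with CB103 was -0.27 without the depth term and 0.92 with the second table. The cause was not tested.

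Leaving out 1 library in turn gave 0 to 2 members with NEO2734, 0 to 2 with OTX015, 0 to 5 with NEO2734 and 0 to 4 with OTX015 in Toledo, 0 to 9 over all contrasts within lines, 0 to 1 for the NEO2734 response between lines, 28 to 41 between lines and 69 to 72 for the depth term. For OTX015 the libraries concerned were OCILy10 OTX015 replicate 2 (2), OCILy10 CB103 replicate 3 (1) and Toledo DMSO replicate 1 (1).

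Same-numbered libraries deviated together (r over 0.1) in 9 of 9 pairs of groups in DOHH2 and 9 of 9 in TMD8. In OCILy10 they did so in 13 of 18 pairs and in Toledo in 3 of 9 (all lines -0.758 to 0.906). The numbers were therefore not taken to pair the samples over the 4 lines. The most negative r, -0.758 for replicate 3 of Toledo NEO2734 and OTX015, joined a deep and a shallow library. Such values cannot tell whether same-numbered libraries shared a culture, because depth differs between them too. In DOHH2 and TMD8 the replicate block left 0 members called with either compound. With the replicate block 57 members were called for the depth term, and RPS29 with OTX015 in Toledo was at -1.13 with an edgeR adjusted p of 0.0577. The depth term has no value in fits without it, with depth as a factor or within 1 depth set. The deep libraries alone leave 2 residual degrees of freedom, so a count of 0 there says nothing about stability. Depth limits most the members with the fewest counts, such as RPL39L.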
